A study of Mus musculus with 18 samples.

Results

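The genes described here encode semaphorins, plexins, neuropilins, Slits, Robos, netrins and netrin receptors. They were taken by gene symbol: semaphorin classes 3 to 7, plexins A to D, both neuropilins, the Slits, the Robos, the netrins, the Unc5 receptors, Dcc and Neo1. Of 48 mouse genes in the GENCODE M21 annotation with such a symbol, 41 were among the 14686 genes listed in any of the 3 deposited expression tables. The other 7 (Dcc, Ntn3, Ntn5, Plxnb3, Robo3, Unc5a and Unc5d) were in no table and have no value here. All 41 were listed for CD1 limb buds and for e11.5 hindlimbs, and 39 for the e11.0 hindlimbs of the Pitx1 series, where Sema4f and Slit1 were missing.

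These proteins are guidance cues and their receptors, best known for steering growing axons and also used by endothelial cells and migrating mesenchyme. Secreted class 3 semaphorins generally bind a neuropilin that forms a complex with a plexin, while most membrane-bound semaphorins bind plexins directly. Slits signal through Robo receptors, and netrins through Dcc, Neo1 and the Unc5 receptors. In the limb bud, mesenchyme supplies several of these ligands to incoming motor and sensory axons and to vessels.

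RNA was sequenced from mouse limb buds in 6 groups of 3 libraries. In wild type CD1 embryos, forelimbs at embryonic day e10.5 were set against hindlimbs at e11.0, 2 stages that the study treats as matched in morphology, so limb type and age cannot be told apart in that comparison. Hindlimbs of Pitx1 null embryos were set against Pitx1 wild type hindlimbs at e11.0 and again at e11.5, all on the strain given as BALB/c. Pitx1 is a homeodomain transcription factor of the hindlimb, and the labels give the null genotype without naming the allele, the litters or how many limb buds went into a library. P-values therefore measure the spread between these libraries, which may be technical. Libraries of e10.5 and e11.0 were made from ribosome-depleted RNA and those of e11.5 from enriched mRNA, so stage and library type cannot be told apart.

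Depth was 17381522 to 53611914 reads on listed genes per library. Replicates 1 and 2 of every group shared a sequencing run, called the shared run here. The third replicates of the Pitx1 series belonged to a different run at each stage, unstranded at e11.5, and no run is named for those of CD1. In every group pair, replicate 3 stood apart from replicates 1 and 2, so the run was a term in every test. Pitx1 itself checked the labels: it was at 209 ± 22.5 CPM (reads per gene scaled to a fixed library total; mean ± SD, n = 3) in CD1 hindlimb and 0.352 ± 0.100 in CD1 forelimb. In null hindlimbs it fell from 124 ± 10.9 to 21.2 ± 1.81 CPM at e11.0 and from 338 ± 23.7 to 79.8 ± 8.31 CPM at e11.5 (SD, n = 3), so Pitx1 reads remained. Prrx1, which marks limb mesenchyme, was detected in every group. The tissue was bulk, so fewer cells of a type and less RNA per cell cannot be told apart in any result here.

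The promoters of 4 genes are shown because the results turn on their genes: Slit2 passed the test in all 3 comparisons, Robo2 had the lowest null-to-wild-type ratio of the group at e11.0, and Robo4 and Sema3d held the motifs searched. RefSeq promoter entries on GRCm38.p6 matched 34 of the 41 listed genes. Each line gives up to 250 bases before the RefSeq start, read 5′ to 3′ on the gene's strand and ending before any annotated exon. Slit2 is at chr5:47982905-47983137 on the plus strand, Robo2 at chr16:74411826-74412075 on the minus strand, Robo4 at chr9:37401722-37401896 on the plus strand and Sema3d at chr5:12382916-12383165 on the plus strand. Capitals mark a motif match on either strand.
Slit2: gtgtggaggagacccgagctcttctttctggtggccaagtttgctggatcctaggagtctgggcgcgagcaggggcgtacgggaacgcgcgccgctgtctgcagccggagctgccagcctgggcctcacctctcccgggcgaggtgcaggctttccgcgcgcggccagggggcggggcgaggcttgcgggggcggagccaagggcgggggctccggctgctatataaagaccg
Robo2: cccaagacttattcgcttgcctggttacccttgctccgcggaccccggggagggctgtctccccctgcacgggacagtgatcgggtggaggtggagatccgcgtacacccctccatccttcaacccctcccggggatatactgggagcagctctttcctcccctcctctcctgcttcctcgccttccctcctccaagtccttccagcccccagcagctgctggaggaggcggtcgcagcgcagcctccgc
Robo4: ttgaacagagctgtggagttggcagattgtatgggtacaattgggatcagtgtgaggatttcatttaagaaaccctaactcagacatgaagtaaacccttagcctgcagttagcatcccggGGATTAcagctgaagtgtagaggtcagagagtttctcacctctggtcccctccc
Sema3d: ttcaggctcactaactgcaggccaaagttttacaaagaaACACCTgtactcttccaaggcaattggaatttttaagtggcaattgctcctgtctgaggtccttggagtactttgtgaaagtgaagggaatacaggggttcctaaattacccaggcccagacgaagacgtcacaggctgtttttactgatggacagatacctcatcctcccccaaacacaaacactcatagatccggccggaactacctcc
The motif TAATCC, the core bound by bicoid-type homeodomains such as Pitx1, is in capitals in Robo4 as its reverse complement GGATTA, 129 bases before the start. It occurred in 1 of the 34 genes (2.94%) and in 7.21% of the 27025 genes with a promoter entry. AGGTGT, the core of T-box sites, is in capitals in Sema3d as ACACCT, 211 bases before the start. It occurred in 6 of the 34 (17.6%), which were Sema3d, Sema3g, Sema4a, Sema4f, Sema6d and Unc5c, and in 13.6% of all genes. Neither motif was in the Slit2 or Robo2 stretch. The median GC content over promoter entries was 64.4% for these genes and 52.4% for all, and the Slit2 and Robo2 stretches held 70.4% and 65.6% GC against 47.4% for Robo4 and 46.8% for Sema3d. The Robo2 entry shown lies directly before the start of its annotated gene on the minus strand, and its other entries held 44.8% and 53.2% GC. A match is a description of letters and shows no binding.

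Per kilobase of annotated exon, the plexin Plxnb2 was the most abundant of the 41 in every group. Its mean level was 33.2 CPM per kb in CD1 forelimb and 34.3 in CD1 hindlimb. In the Pitx1 series the e11.0 hindlimbs had 30.4 in wild type and 26.1 in null, and the e11.5 hindlimbs 64.8 and 63.1. Nrp2 and the netrin receptors Neo1 and Unc5b came next in both CD1 groups and in both e11.0 groups. In wild type hindlimb at e11.0, Neo1 stood at 18.0 CPM per kb, Unc5b at 16.7, Nrp2 at 14.9 and Sema3f, a secreted semaphorin, at 13.1, and these neighbours' ranges over the libraries overlapped. At the low end, Sema3e and Sema5b averaged below 1 CPM per kb in every group. Ntn1, the classic axon-attracting netrin, was more abundant per length than Ntn4 in every group, and Slit3 more abundant than Slit2. Exon length here joins all annotated isoforms, which can understate genes such as Slit2, whose joined exons cover 25433 bases.

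**Figure D1:**
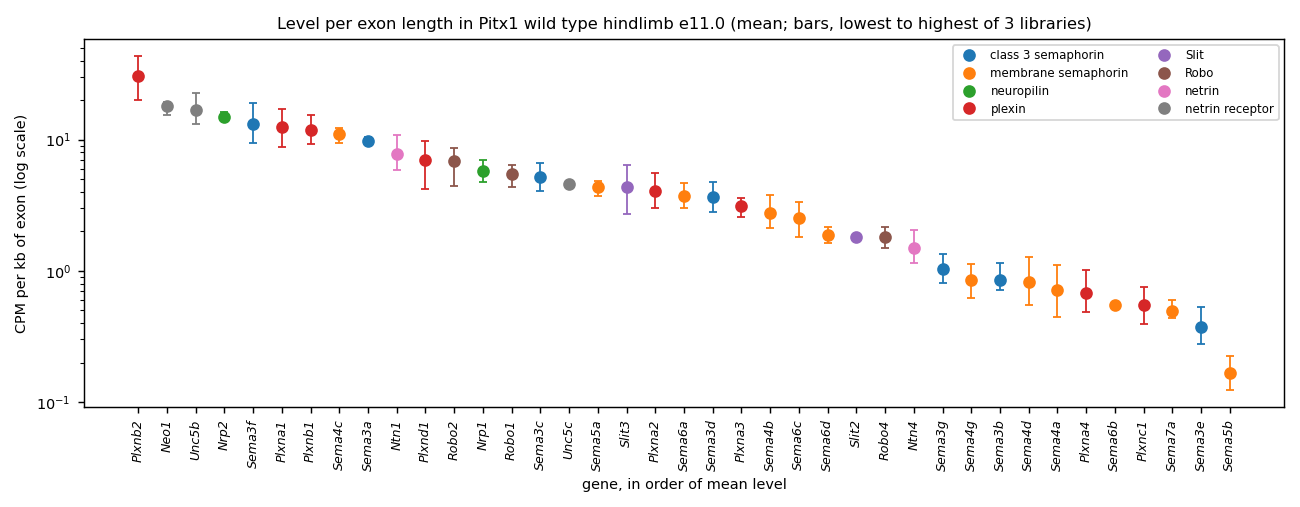
Mean level of the 39 guidance genes listed in the table of Pitx1 wild type hindlimb at e11.0, in CPM per kb of exon on a log axis, with bars from the lowest to the highest of 3 libraries and colours for the protein family. Plxnb2 is highest at 30.4 and Sema5b lowest at 0.167.

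The first comparison asked how hindlimb at e11.0 differs from forelimb at e10.5 in CD1 embryos. Of the 41 genes, 8 were lower in hindlimb and 1 was higher at an adjusted p under 0.05 (limma on log2(CPM + 1), Benjamini-Hochberg over all genes). Among all 13540 genes of that table, 5.87% passed, 3.46% lower and 2.41% higher. Ligands of 3 families were lower, with Ntn1, Slit2 and the secreted semaphorins Sema3a and Sema3d, together with the receptors Plxna4, Plxna2 and Unc5c and the membrane semaphorin Sema5a. Nrp2, the usual neuropilin of Sema3f, was higher. The median log2 difference was -0.04 over the 41 and 0.01 over all genes.

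Ntn1 was at 60.7, 69.4 and 35.9 CPM in forelimb replicates 1, 2 and 3 and at 41.7, 36.8 and 20.96 CPM in hindlimb. Each hindlimb library was below the forelimb library of the same number, but the groups overlapped because replicate 3 was low in both. Its log2 difference was -0.73 ± 0.07 (SE, adjusted p = 0.000289 by limma), with -0.71 within the shared run and -0.75 between the replicate 3 libraries. The ligand Slit2 was at 60.1, 59.5 and 72.0 CPM in forelimb and at 43.4, 40.8 and 46.4 CPM in hindlimb. The groups did not overlap, and the log2 difference was -0.54 ± 0.05 (adjusted p = 0.000311), -0.50 within the shared run and -0.62 for replicate 3. Plxna4, a plexin that acts as the signalling partner of Nrp1 for Sema3a, was at 19.6, 20.2 and 13.2 CPM in forelimb and at 13.6, 11.2 and 8.61 CPM in hindlimb. The third forelimb library lay below the first hindlimb library, and the log2 difference was -0.62 ± 0.08 (adjusted p = 0.00193), -0.65 within the shared run and -0.56 for replicate 3.

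The other changes between the CD1 limbs were smaller. Sema3a, which repels axons through Nrp1, differed by -0.41 ± 0.04 on the log2 scale with no overlap of the groups, and Sema3d by -0.38 ± 0.08. Sema5a differed by -0.32 ± 0.05, Plxna2 by -0.33 ± 0.07 and the netrin receptor Unc5c by -0.24 ± 0.05, while Nrp2 was higher by 0.28 ± 0.05. Groups did not overlap for 3 of the 41 genes (Slit2, Sema3a and Unc5c, 7.32%) against 11.2% of all genes. The 32 genes that missed the threshold, all 3 Robos among them, ran from -0.30 (Slit1) to 0.24 (Sema4f). All 9 kept their direction within the shared run and in the replicate 3 pair, which is no separate check, as both entered the fit that passed them. Ntn1, Slit2, Sema3a, Plxna4 and Sema5a passed with any 1 library left out, Nrp2 passed in 4 of these 6 fits, Sema3d in 3, and Plxna2 and Unc5c in 2 each. The count over the 41 fell to 5 without hindlimb replicate 1. Over all 13540 genes, the count ran from 394 to 1191 as single libraries were left out.

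Cell type markers also differed between the CD1 limbs, against 5.87% of all genes. Of 12 limb mesenchyme markers, 5 were lower in hindlimb and 1, Hand2, was higher, with sums of 1840 to 2471 CPM in forelimb and 1717 to 2207 CPM in hindlimb. Of 12 erythroid genes listed, 4 globin genes were higher and none lower (sums of 3828 to 3933 CPM and 3914 to 5192 CPM). Of 6 muscle precursor markers, Pax3 and Lbx1 were lower and 1 was higher (sums of 153 to 194 CPM and 135 to 171 CPM), and 2 of 10 cartilage markers were lower (397 to 550 CPM and 380 to 537 CPM). Single markers were lower among the 12 endothelial (Erg; 304 to 385 CPM and 326 to 401 CPM), 3 nerve and Schwann (Ngfr; 23.8 to 36.6 CPM and 19.1 to 31.1 CPM) and 12 surface ectoderm markers (Trp63; 274 to 284 CPM and 264 to 284 CPM). None of these was at 0, and their part in the values of the guidance genes was not tested.

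**Figure D2:**
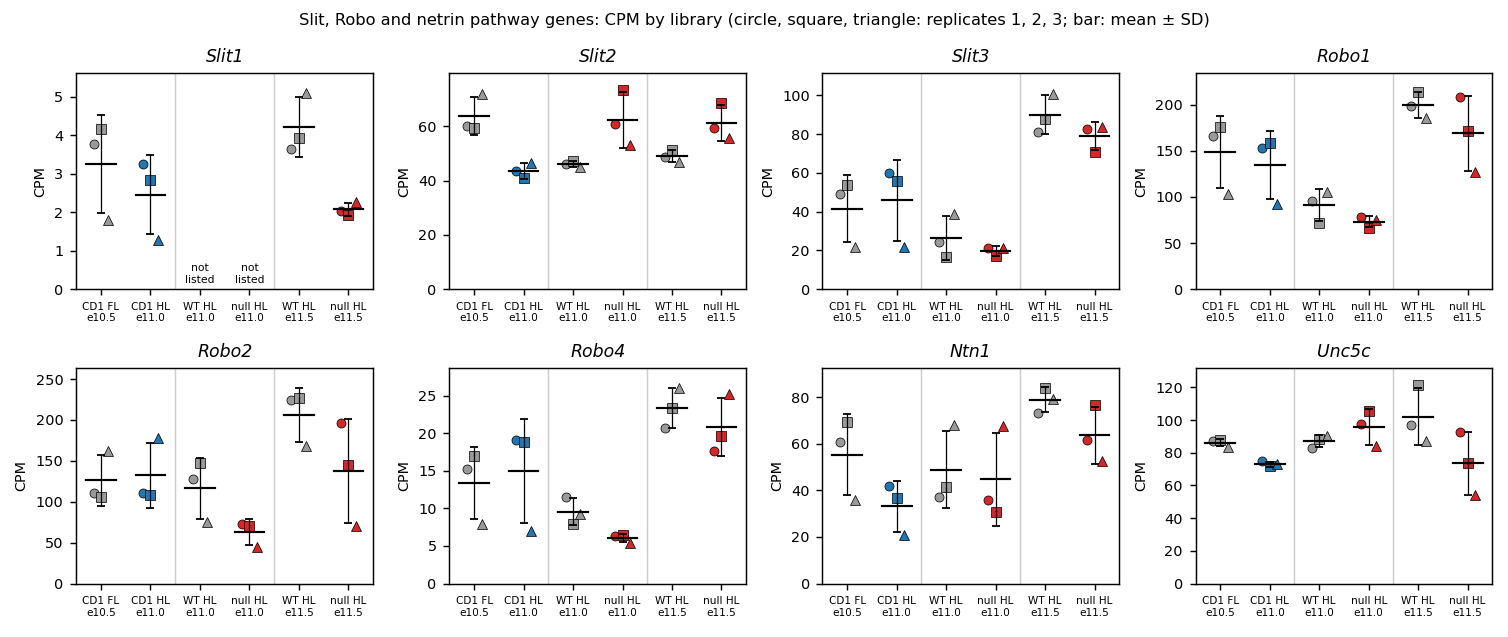
CPM of 8 Slit, Robo, netrin and netrin receptor genes in each library of the 6 groups (FL forelimb, HL hindlimb, WT wild type); circles, squares and triangles are replicates 1, 2 and 3, and bars show the mean ± SD. Levels in the 3 pairs of groups come from separately normalized tables; Slit2 is lower in CD1 hindlimb than forelimb without overlap and higher in null than wild type at both stages.

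The Pitx1 comparisons asked which guidance genes change in Pitx1 null hindlimbs. At e11.0, 2 of the 39 listed genes were higher in the null, the ligands Slit2 and Sema3c, and 5 were lower: the receptors Robo2, Nrp1 and Robo4 and the membrane semaphorins Sema5a and Sema6a. Among all 14027 genes, 13.1% passed, 4.73% higher and 8.41% lower, against 17.9% of the 39. At e11.5, 2 of 41 were higher (Nrp2 and Slit2) and 10 were lower: Slit1, Robo2, Sema6a, Sema3d, Nrp1, Unc5c, Sema4g, Ntn4, Sema3g and Sema3c. Among all 13478 genes, 10.8% passed, 2.83% higher and 7.96% lower, against 29.3% of the 41. The median log2 difference was -0.17 over the 39 genes and -0.07 over all genes at e11.0, and -0.20 over the 41 and -0.02 over all at e11.5. Slit2 was higher, and Robo2, Nrp1 and Sema6a were lower, at both stages. The stages share no libraries, but replicates 1 and 2 of both came from the shared run. The share of all genes that passed the same way at both stages is not given here, so this overlap has no background beside it.

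Slit2, the ligand of the Robo receptors, was at 46.1, 47.2 and 44.9 CPM in wild type and at 60.8, 73.4 and 53.0 CPM in null hindlimb at e11.0. At e11.5 it was at 48.6, 51.4 and 47.0 CPM in wild type and at 59.3, 68.5 and 55.5 CPM in null. Every null library was above every wild type library of its stage. The log2 difference was 0.42 ± 0.09 at e11.0 (adjusted p = 0.0222 by limma), 0.51 within the shared run and 0.23 for replicate 3. The later stage gave 0.31 ± 0.07 (adjusted p = 0.0213), 0.34 within the shared run and 0.24 for replicate 3. It did not pass without null replicate 2 or 3 or wild type replicate 1 or 3 of the same stage, where the log2 difference ran from 0.31 to 0.51 at e11.0 and from 0.24 to 0.34 at e11.5.

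Slit1, expressed at low level, was at 3.63, 3.93 and 5.10 CPM in wild type and at 2.02, 1.93 and 2.26 CPM in null hindlimb at e11.5. The groups did not overlap, and the log2 difference was -0.76 ± 0.09 (adjusted p = 0.00219 by limma), -0.68 within the shared run and -0.91 for replicate 3. Slit3 differed by -0.33 ± 0.17 at e11.0 and -0.18 ± 0.07 at e11.5 and missed the threshold at both stages. Slit1 and Slit2 thus moved in opposite directions at e11.5.

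Robo2, a Slit receptor, was at 127, 147 and 74.8 CPM in wild type and at 73.2, 70.8 and 45.1 CPM in null hindlimb at e11.0. The highest null value lay just under the lowest wild type value, which came from the other run. The log2 difference was -0.85 ± 0.08 (adjusted p = 0.000302 by limma), -0.92 within the shared run and -0.72 for replicate 3. At e11.5 Robo2 was at 224, 227 and 168 CPM in wild type and at 197, 145 and 70.4 CPM in null. The groups overlapped there, the null libraries were widely spread, and the log2 difference was -0.69 ± 0.16 (adjusted p = 0.0289), -0.41 within the shared run and -1.24 for replicate 3. It did not pass without either replicate 3 library (-0.41) or without null replicate 2 (-0.64). Robo1, which lies 846 kb from Robo2 on chromosome 16, differed by -0.29 ± 0.11 at e11.0 and -0.26 ± 0.10 at e11.5, neither past the threshold. With the replicate number as a block it passed as lower at e11.0 (adjusted p = 0.0206 by limma).

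Robo4, a Robo known mainly from endothelial cells, was at 11.52, 7.94 and 9.31 CPM in wild type and at 6.27, 6.46 and 5.39 CPM in null hindlimb at e11.0. The groups did not overlap, and the log2 difference was -0.58 ± 0.13 (adjusted p = 0.0239 by limma), -0.52 within the shared run and -0.69 for replicate 3. It did not pass without null replicate 2 or 3 or wild type replicate 1 or 3, with values from -0.61 to -0.46. At e11.5 Robo4 differed by -0.17 ± 0.08 and did not pass.

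Nrp1, the neuropilin that binds Sema3a and also VEGF, was at 68.8, 55.7 and 46.2 CPM in wild type and at 36.7, 36.6 and 26.5 CPM in null hindlimb at e11.0. At e11.5 it was at 64.6, 71.2 and 69.8 CPM in wild type and at 46.9, 45.6 and 46.9 CPM in null. The groups did not overlap at either stage. The log2 difference was -0.75 ± 0.09 at e11.0 (adjusted p = 0.00128 by limma), -0.74 within the shared run and -0.78 for replicate 3. In the e11.5 libraries the difference was -0.55 ± 0.05 (adjusted p = 0.000946), -0.54 within the shared run and -0.56 for replicate 3. The other neuropilin, Nrp2, differed by -0.17 ± 0.13 at e11.0, not past the threshold, and was higher in null by 0.39 ± 0.06 at e11.5 (adjusted p = 0.00795), where its values were 412, 438 and 364 CPM in wild type and 617, 537 and 443 CPM in null. The difference between the stages was 0.56 ± 0.17 for Nrp2 and did not pass its own test (adjusted p = 0.139).

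**Figure D3:**
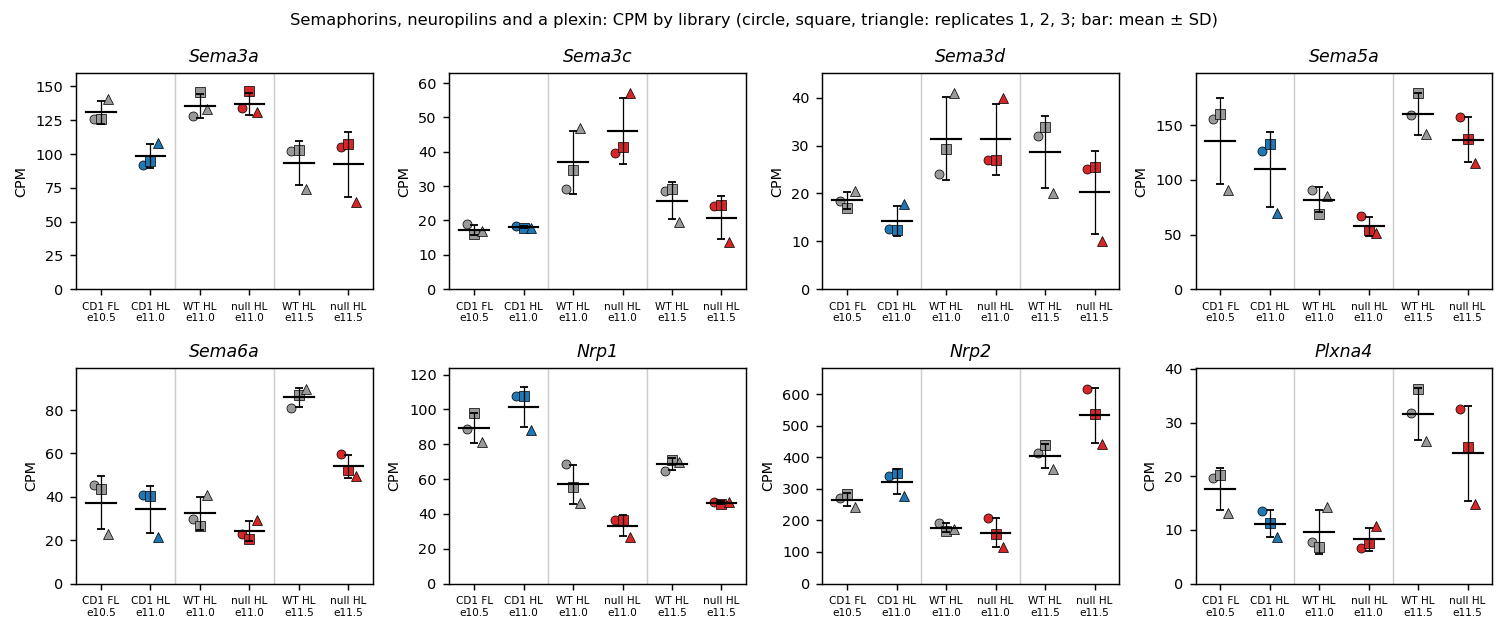
CPM of 5 semaphorins, both neuropilins and Plxna4 in each library of the 6 groups (FL forelimb, HL hindlimb, WT wild type); circles, squares and triangles are replicates 1, 2 and 3, and bars show the mean ± SD. Nrp1 is lower in null than wild type at both stages without overlap, and Sema3c is higher in null at e11.0 and lower at e11.5.

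Markers of endothelial cells, which also express Nrp1 and Robo4, moved in the same comparison. Of 12 such markers, 9 were lower and none higher in null hindlimb at e11.0, against 8.41% of all genes lower. Among the 9 were Cdh5 (VE-cadherin) at -0.68 ± 0.15 and Pecam1 at -0.53 ± 0.13 on the log2 scale. The summed level of the 12 was 224 to 324 CPM in wild type and 152 to 267 CPM in null, and none of them was at 0. With TMM scaling, 4 of the 12 were lower at e11.0, where TMM raised the share of higher genes among all calls from 36.0% to 67.2%. At e11.5, 2 of the 12 were lower, Cdh5 and Tie1, against 7.96% of all genes. The e11.5 sums were 435 to 503 CPM in wild type and 378 to 485 CPM in null. The part of this shift in the values of Robo4 and Nrp1 was not tested. Plxnd1, an endothelial plexin, differed by -0.46 ± 0.17 at e11.0 and -0.14 ± 0.06 at e11.5, neither past the threshold, though it passed at e11.0 with the replicate number as a block (adjusted p = 0.0285 by limma). Sema3g, a vascular semaphorin, differed by -0.50 ± 0.15 at e11.0 (adjusted p = 0.0528 by limma, and 0.013 with the block) and was lower by -0.33 ± 0.08 at e11.5 (adjusted p = 0.0336).

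Other markers moved at e11.0 as well, against 13.1% of all genes. Of 12 limb mesenchyme markers, 6 were lower in null, among them Meox2 at -0.64 ± 0.09 and Prrx1 at -0.40 ± 0.06, with sums of 1530 to 1830 CPM in wild type and 1109 to 1457 CPM in null. Of 6 muscle precursor markers, 4 were lower, Pax3 at -1.13 ± 0.13 among them (136 to 149 CPM and 104 to 117 CPM). Of 10 cartilage markers, 5 were lower, Sox9 at -0.92 ± 0.10 among them (416 to 612 CPM and 364 to 506 CPM). Of 12 surface ectoderm markers, 5 were higher and none lower (355 to 841 CPM and 463 to 1006 CPM), and 1 of 13 erythroid genes, Hbb-bs, was higher (4942 to 11408 CPM and 6235 to 17989 CPM). None of these was at 0, and their part in the e11.0 values of the guidance genes was not tested.

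**Figure D4:**
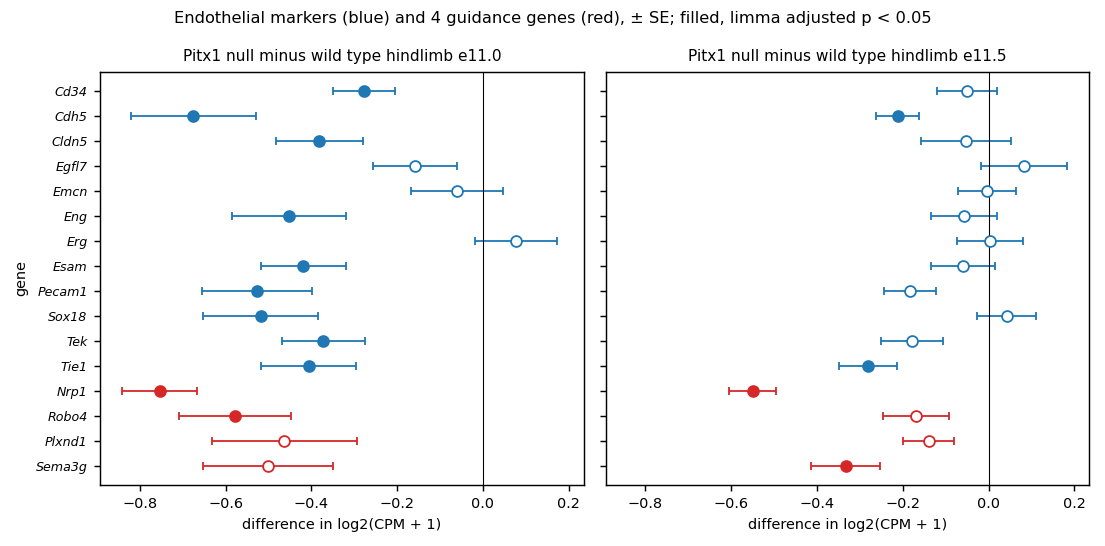
Log2 difference of null minus wild type hindlimb (± SE, in log2(CPM + 1)) for 12 endothelial markers in blue and 4 guidance genes in red, at e11.0 on the left and e11.5 on the right; filled points passed an adjusted p of 0.05. At e11.0, 9 of the 12 markers passed, all to the left of 0, and at e11.5, 2 did.

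Among semaphorins, Sema6a, a membrane semaphorin that signals through A-class plexins, was at 81.2, 87.1 and 89.7 CPM in wild type and at 59.8, 52.5 and 49.8 CPM in null hindlimb at e11.5. The groups did not overlap, and the log2 difference was -0.66 ± 0.07 (adjusted p = 0.00123 by limma), -0.58 within the shared run and -0.84 for replicate 3. At e11.0 it was -0.39 ± 0.09 (adjusted p = 0.0228), and the replicate 3 libraries of both genotypes were the highest of their groups. Sema5a was at 90.8, 69.2 and 85.5 CPM in wild type and at 67.0, 54.3 and 51.0 CPM in null at e11.0. These groups did not overlap, and the log2 difference was -0.50 ± 0.12 (adjusted p = 0.0271), -0.39 within the shared run and -0.74 for replicate 3. The e11.5 difference was -0.23 ± 0.07 and did not pass (adjusted p = 0.0574). At e11.0 neither gene passed without null replicate 2 or 3 or wild type replicate 1 or 3, where Sema6a ran from -0.36 to -0.35 and Sema5a from -0.45 to -0.39.

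The secreted semaphorin Sema3d was at 32.0, 34.0 and 20.1 CPM in wild type and at 25.1, 25.5 and 10.1 CPM in null hindlimb at e11.5. Each null library was below the wild type library of its number, though the groups overlapped through the low wild type replicate 3. The log2 difference was -0.55 ± 0.11 (adjusted p = 0.0138 by limma), -0.37 within the shared run and -0.92 for replicate 3. At e11.0 it was 0.00 ± 0.09. Its neighbours on chromosome 5, Sema3a at 536 kb and Sema3e beyond it, did not pass at either stage.

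Sema3c, a secreted semaphorin with roles in the heart outflow tract, went opposite ways. It was at 29.0, 34.6 and 47.0 CPM in wild type and at 39.6, 41.5 and 57.1 CPM in null hindlimb at e11.0. At e11.5 it was at 28.7, 29.0 and 19.5 CPM in wild type and at 24.2, 24.6 and 13.7 CPM in null. In both stages each null library differed from the wild type library of its number in the stated direction, and the groups overlapped. The log2 difference was 0.32 ± 0.08 at e11.0 (adjusted p = 0.036 by limma) and -0.32 ± 0.07 at e11.5 (adjusted p = 0.0241), and it passed in 1 and 2 of the 6 fits that each lacked a library of that stage. The difference between the stages was -0.64 ± 0.11 (adjusted p = 0.0273 over 12935 genes, of which 0.363% passed), and Sema3c was the only one of the 39 genes to pass it. With replicates 1 and 2 alone it was -0.58 and did not pass. Leaving out each of the 12 libraries in turn, it passed in 2 fits, those without wild type replicate 2 at e11.0 and wild type replicate 1 at e11.5, and the values ran from -0.67 to -0.55. In the same test of the difference, 4 of 10 cartilage markers and 1 of 3 nerve and Schwann markers passed with a negative and 3 of 12 limb mesenchyme markers with a positive difference, and their part in the Sema3c value was not tested.

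The remaining genes that passed at e11.5 were Unc5c, Ntn4, Sema4g and Sema3g. Unc5c, a netrin receptor, was lower by -0.49 ± 0.11, Ntn4, a basement membrane netrin, by -0.39 ± 0.09 and Sema4g by -0.40 ± 0.07 on the log2 scale. Of the 6 fits lacking a library each, Unc5c passed in 2, Ntn4 in 1, Sema4g in 3 and Sema3g in 0. Ntn1 differed by -0.16 ± 0.09 at e11.0 and -0.32 ± 0.11 at e11.5, neither past the threshold, and Neo1 by -0.20 ± 0.09 and -0.17 ± 0.05. No plexin passed at either stage: the 8 ran from -0.46 to 0.13 at e11.0 and from -0.54 to 0.08 at e11.5. With the replicate number as a block, Plxna1, Plxna3, Plxnb1 and Plxnd1 passed as lower at e11.0. The lowest, Plxna3 at e11.5, rested on null replicate 2 at 9.44 CPM, against 39.5 and 53.8 CPM in the other null libraries and 30.5 to 51.7 CPM in wild type. Cell type markers moved at e11.5 too, where 7.96% of all genes were lower and 2.83% higher. At that stage all 9 muscle precursor markers and 8 of 10 cartilage markers were lower in null, with sums of 129 to 168 CPM against 211 to 249 CPM and of 581 to 728 CPM against 1148 to 1258 CPM. Of 12 limb mesenchyme markers, 5 were higher (2394 to 2832 CPM in wild type and 2229 to 2955 CPM in null), as were 2 of 12 surface ectoderm markers (333 to 386 CPM and 397 to 467 CPM). Lower were 2 of 7 macrophage markers (31.4 to 38.0 CPM and 25.03 to 31.5 CPM) and 1 of 4 nerve and Schwann markers, Erbb3 (40.2 to 50.1 CPM and 29.1 to 40.4 CPM). None of these was at 0, and their part in these values was not tested.

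**Figure D5:**
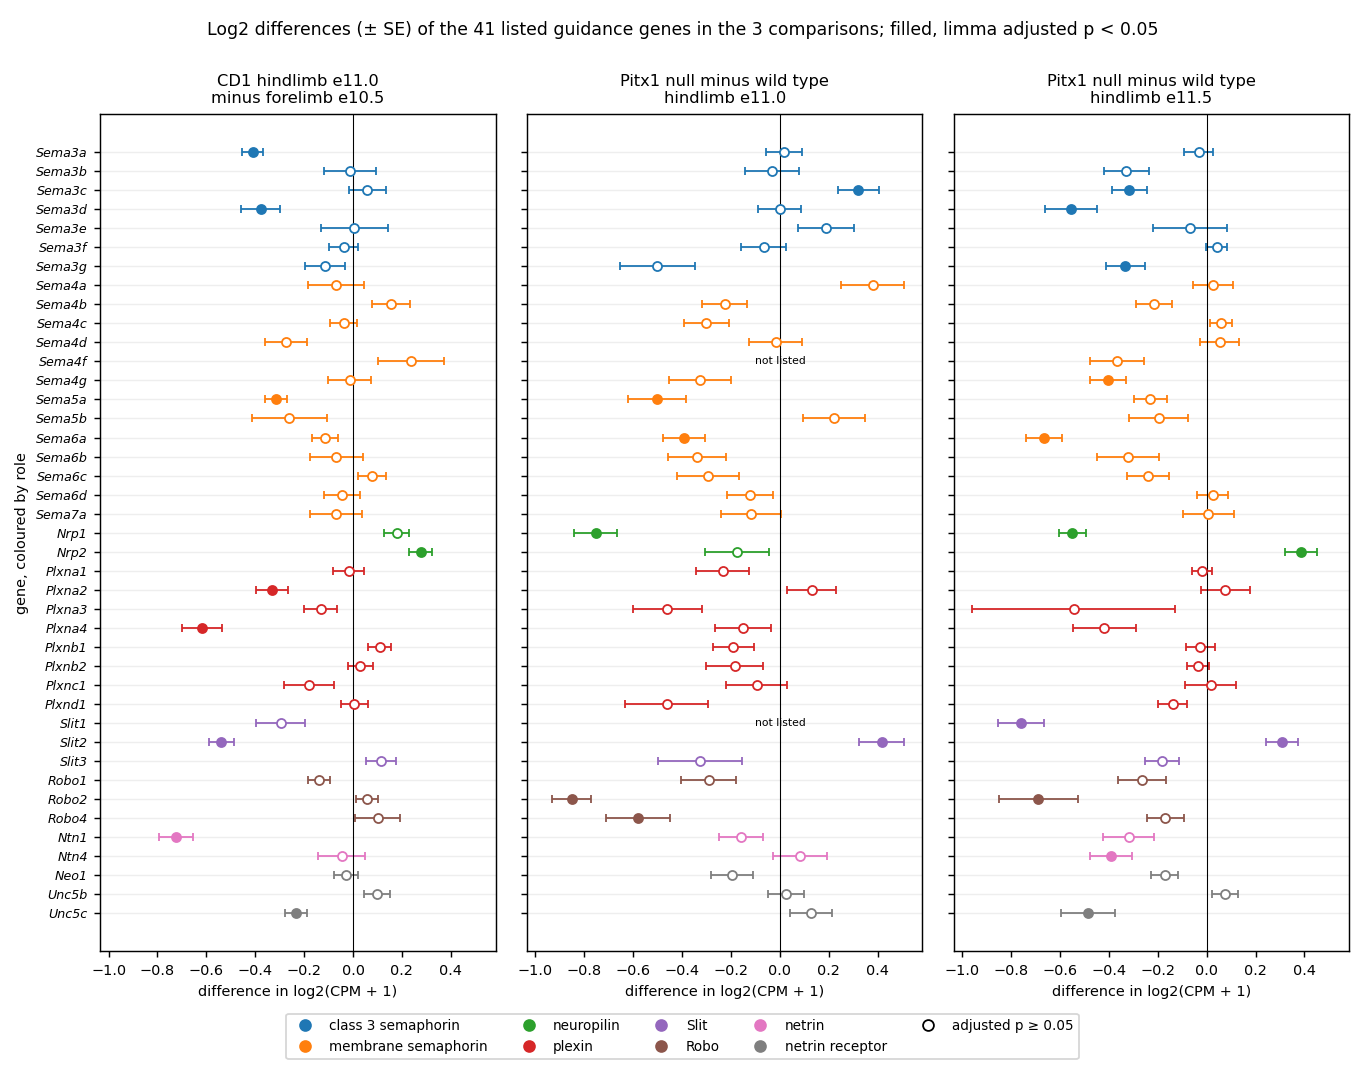
Log2 difference (± SE, in log2(CPM + 1)) of each of the 41 guidance genes in the 3 comparisons, coloured by family; filled points passed an adjusted p of 0.05. In CD1 limbs 8 filled points lie left of 0 and 1 right, at e11.0 5 left and 2 right, and at e11.5 10 left and 2 right.

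Groups did not overlap for 7 of 39 genes at e11.0 (17.9%, against 18.5% of all genes) and for 10 of 41 at e11.5 (24.4%, against 16.5%). All 7 and all 12 genes that passed kept their direction within the shared run and in the replicate 3 pair, and with TMM scaling. The same libraries had entered the fit that passed these genes, so this is no separate check. With the replicate number as a block, 16 guidance genes passed at e11.0, 3 higher and 13 lower, against 24.5% of all genes, 7.53% higher and 17.0% lower. The blocked fit passed 9 in CD1 (4.73% of all genes), 13 at e11.5 (10.7%) and again Sema3c between the stages (1.62%). At e11.0 it added Plxna1, Plxna3, Plxnb1, Plxnd1, Robo1, Sema3g, Sema4c and Sema6c as lower and Sema4a as higher. The e11.0 count also turned on single libraries: it was 2, Robo2 and Nrp1, without null replicate 2 or 3 or wild type replicate 1 or 3, and 19 without wild type replicate 2. Over all 14027 genes the count ran from 116 to 5273 in these fits, also highest without wild type replicate 2. At e11.5 the guidance count was 5 without either replicate 3 library, 6 without null replicate 2, 8 without wild type replicate 2 and 16 without null replicate 1. Over all 13478 genes the e11.5 count ran from 433 to 2627 in such fits. Nrp1, Sema6a, Slit1, Nrp2 and Sema3d passed in every such fit. With edgeR on the recovered reads the counts were 9 in CD1, 7 at e11.0 and 12 at e11.5, against 6.51%, 12.4% and 12.1% of all genes. In the authors' deposited table they were 12, 11 and 19, against 12.5%, 20.6% and 19.6%. TMM scaling raised the share of higher genes among all calls from 36.0% to 67.2% at e11.0 and from 26.3% to 41.3% at e11.5.

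Other genes of the same pathways were taken from 2 lists, 23 further ligands, co-receptors and partners and 45 intracellular effectors. Of the partners, 4 of 19 listed were lower in CD1 hindlimb, 5 of 19 lower in null at e11.0 and 10 of 21 lower in null at e11.5, with none higher. Among all genes the shares lower were 3.46%, 8.41% and 7.96% in these 3 comparisons, and the shares higher were 2.41%, 4.73% and 2.83%. Of the effectors, 4 of 44 were higher and 1 lower in CD1 hindlimb, 1 higher and 10 lower in null at e11.0, and 1 higher and 8 of 45 lower at e11.5. At e11.0 the 16 that passed in both lists came down to 8 with TMM scaling and to 9 with edgeR on the reads.

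In CD1 hindlimb the largest of these differences was in Ntng1, a membrane-anchored netrin, at -1.39 ± 0.13 on the log2 scale, followed by the BMP receptor Bmpr1b at -0.78 ± 0.09 and the Unc5 ligand Flrt2 at -0.64 ± 0.05. Dpysl4 of the collapsin response mediator family was higher by 0.56 ± 0.07, while the Robo effector Srgap3 (-0.54 ± 0.10) and the secreted cue Draxin (-0.53 ± 0.08) were lower. In null hindlimb at e11.0, the VEGF receptor Kdr was lower by -0.66 ± 0.13, the adhesion protein Nrcam by -0.64 ± 0.12 and the plexin effector Farp2 by -0.54 ± 0.11, and Srgap2, Rgma and Draxin by -0.44 ± 0.10, -0.44 ± 0.11 and -0.42 ± 0.12. At e11.5, Srgap3 was lower by -0.64 ± 0.07 and Ntng1 by -0.60 ± 0.11. The Neo1 ligands Rgma and Rgmb were lower by -0.59 ± 0.07 and -0.53 ± 0.08, the plexin partner Met by -0.58 ± 0.05 and Nrcam by -0.51 ± 0.12. Met also stands among the muscle precursor markers.

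Nerve cells answer to these cues, and their markers were partly unlisted. Of 12 neuronal markers 6 or 7 were listed, and Dcx, of young neurons, was lower in CD1 hindlimb by -0.40 ± 0.08 and in null by -1.17 ± 0.10 at e11.0 and -0.66 ± 0.13 at e11.5. Markers of this list did not all move one way in null hindlimb: Nefl was higher by 0.65 ± 0.12 at e11.0, and Gap43 was higher by 0.23 ± 0.06 and Stmn2 lower by -0.37 ± 0.09 at e11.5. In CD1, Dcx was the only one of 6 to pass, and the sums were 92.1 to 147 CPM in forelimb and 86.2 to 107.98 CPM in hindlimb. The listed neuronal markers summed to 57.7 to 85.8 CPM in wild type and 53.9 to 59.1 CPM in null at e11.0, and to 125 to 129 CPM and 92.0 to 123 CPM at e11.5. The part of this in the values of Robo2, Nrp1 and Plxna4, which neurons also express, was not tested. Exons of Sema4c overlap D430040D24Rik and exons of Plxnb1 overlap Gm7628 (listed at e11.5), each on the opposite strand, and the counting's strand setting is not given, so their reads cannot be told apart here.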

How the data were processed

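The deposited data were 3 tables, 1 per comparison, with a column per library, normalized separately. Reads were aligned with STAR, counted per gene with featureCounts on GRCm38 (mm10) and tested with edgeR, per the submitters' processing notes. Their versions and the strand setting are not given in the sources used here. The authors gave expression as CPM, and each deposited CPM column sums to 1000000. The authors' log2 fold change and average log2 CPM, a likelihood-ratio score, and p-values stand beside them, per the file headers. Each table holds only genes over 0.5 CPM in 3 or more of its libraries. Values were whole multiples of 1 read within 0.01 read for 100% of values, 1 read being at most 0.0575 CPM, so whole reads could be recovered.

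Each table was fitted on its own with limma 3.58.1 (R 4.3.3) on log2(CPM + 1), with group and run as terms and 3 residual degrees of freedom. P-values are two-sided, adjusted by Benjamini-Hochberg over all genes of the table, with a threshold of 0.05. A fold change on this scale understates the change of low genes. The difference between stages was fitted over 12 libraries with the run within stage. The fits were also run on simulated counts. In these, libraries shared a deviation by run but not by replicate number, and the spread setting was the same for all genes. That simulation therefore cannot show how reliable the calls are in these data. Alternatives were a pseudocount of 0.25, genes with a mean of at least 1 CPM, TMM scaling, no run term, the replicate number as a block, each library left out, replicates 1 and 2 only, edgeR 4.0.16 quasi-likelihood on the recovered reads, and the authors' deposited adjusted p.

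Same-numbered libraries deviated together, with correlations for replicates 1, 2 and 3 of 0.69, 0.80 and 0.94 in the CD1 table, 0.66, 0.64 and 0.86 in the e11.0 table and 0.73, 0.83 and 0.91 in the e11.5 table. Replicates 1 and 2 also correlated across numbers, at 0.75 and 0.85 in the CD1 table, 0.53 and 0.41 in the e11.0 table and 0.63 and 0.63 in the e11.5 table. Deviations were taken from the group mean with the run left in. These correlations therefore cannot tell the replicate number apart from the run. The numbers come from the titles, and the blocked fit is given where it changes a count.

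A gene was given library by library where it passed with a log2 difference of at least 0.5 in size or passed the test between stages; others that passed are given with their SE. Of the other pathway genes, the 6 largest per comparison that passed are named. The genes and lists were chosen with earlier results of these data known. The result of 1 marker gene is not reported here.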

Additional observations from a re-analysis of the deposited data

Results flagged for a closer look

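Sema3c was singled out because its response to Pitx1 loss differed between the stages by a test of the difference itself: null minus wild type was 0.32 at e11.0 and -0.32 at e11.5 on the log2 scale, a difference of -0.64 ± 0.11 (SE, limma adjusted p = 0.0273). All 3 null libraries were above their same-numbered wild type library at e11.0 and all 3 were below at e11.5. The same libraries gave the call, so this is no separate check, and the groups overlapped at both stages. The difference did not pass with the shared run alone, or in most of the fits that each lacked 1 library. Without the run term it did not pass, nor did any other gene. Stage and library type cannot be told apart here, since the e11.5 libraries were made from enriched mRNA. By the same test, 4 of 10 cartilage, 3 of 12 limb mesenchyme and 1 of 3 nerve and Schwann markers also passed, against 0.363% of all genes, and their part in the Sema3c value was not tested.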

How the results depend on the processing

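The 28 calls of single guidance genes in the 3 comparisons kept their direction in every alternative, and none was lost with the pseudocount, the 1 CPM filter, TMM scaling, the replicate block, edgeR on reads or the authors' deposited table. Alternatives were tallied over the 39 single-gene results that passed in the fit with the run term, the blocked fit or edgeR on reads. Of their alternative values, 411 stayed on their side of the threshold, 23 came to pass and 116 ceased to. The blocked fit, which had helped to select them, gave 10 of the 23. The cause was not tested where a count below moved, except that fits with fewer libraries have fewer degrees of freedom.

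Without the run term, 13, 5, 11 and 0 genes passed in CD1, at e11.0, at e11.5 and in the difference between stages, with 0 of the guidance genes and 0 of the other pathway genes. With replicates 1 and 2 only, 471, 199, 483 and 18 genes passed, with 7, 2, 6 and 0 guidance genes; of the other pathway genes 0 passed at e11.0 and 7 at e11.5. With the replicate block, 3442 genes passed at e11.0 and 210 in the difference, against 1843 and 47 without it, with 16 guidance genes and 30 other pathway genes at e11.0 and 1 other pathway gene in the difference; at e11.5 the block added Sema6b (adjusted p = 0.0483), and in CD1 it changed no guidance gene. In the authors' deposited table, 1689, 2895 and 2644 genes passed in CD1, at e11.0 and at e11.5, with 12, 11 and 19 guidance genes. With TMM scaling 8 other pathway genes passed at e11.0 and 1 in the difference, where TMM also moved the share of higher calls from 46.8% to 31.9%. With edgeR on reads 9 other pathway genes passed at e11.0.

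Leaving out 1 library gave 394 to 1191 genes in CD1, 116 to 5273 at e11.0, 433 to 2627 at e11.5 and 10 to 2567 in the difference. Guidance genes ranged from 5 to 10, 2 to 19, 5 to 16 and 0 to 12, and other pathway genes from 7 to 11, 0 to 39, 7 to 19 and 0 to 21. The highest counts at e11.0 and in the difference came without wild type replicate 2 of e11.0. Genes that were over 0.5 CPM in fewer than 3 libraries of a table were not analysed for that comparison.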
